A study of Mus musculus with 10 samples.

Results

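The genes described here mark the connective tissue of the thymus: 33 genes in all, of which 20 belong to fibroblasts and 13 to mural cells, the pericytes and smooth muscle cells that wrap blood vessels. The rule for them reads gene symbols and no measured value, but the genes were chosen with earlier results of these data known. All 33 have a row among the 15790 genes of the deposited count table. The libraries are of RNA from mouse thymic epithelial cells (TEC) isolated by sorting, and were made by MARS-seq, which reads the 3′ ends of transcripts. AR3_mut has 3 libraries labelled Foxn1 del AR3 mut, and its control AR3_het has 3 labelled Foxn1 del AR3 het, so the control carries the altered allele too. The nude group has 4 libraries labelled nu/nu. AR3_mut and AR3_het are C57BL/6 mice of 4.5 weeks and nude are ICR mice of 5 weeks, so strain and age cannot be told apart from the nude genotype. Before the sort, Liberase TH and DNase were used to free the cells of the thymus, and the sources used here do not give the sort markers. The labels do not say whether the libraries of 1 group are from different animals, and the p-values therefore cover only the variation among these libraries, which may be technical.

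Fibroblasts build the collagen scaffold of an organ and its capsule, and mesenchyme around the thymic rudiment supplies signals for the growth of its epithelium. Mural cells lie on the outside of vessels: pericytes cover capillaries and smooth muscle cells form a contractile layer around larger vessels. The 2 cell types carry different platelet-derived growth factor (PDGF) receptors, Pdgfra on fibroblasts and Pdgfrb mainly on mural cells, and endothelial PDGF-B recruits pericytes through Pdgfrb.

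The library totals were between 1056066 and 4175851 counts, so that 3 counts, taken as the floor, correspond to 0.621 to 2.99 CPM (counts scaled to a common library size, with TMM factors). Foxn1 was at 382, 317 and 367 CPM in AR3_het 1 to 3 and did not exceed 1.99 CPM in the other 7 libraries. AR3_het 3 stood apart in the sex-linked genes Ddx3y and Xist, which were looked at after their values were seen. Ddx3y was at 83.5 CPM there and at most 1.03 CPM elsewhere, and Xist at 1.07 CPM there against 26.9 to 52.1 CPM elsewhere. Without AR3_het 3, 16 higher and 1 lower fibroblast genes and 10 higher and 0 lower mural genes passed the test for AR3_mut against AR3_het, among 4889 genes in all (2423 higher and 2466 lower). For nude against AR3_het they were 16 higher and 1 lower on the fibroblast side and 9 higher and 0 lower on the mural side, among 5681 genes in all (2726 higher and 2955 lower). The library nude 3 differed from nude 1 and nude 2 on both sides of the gene set, and the sums, ratios and calls that turn on it are also given without it.

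Both sides were several times higher in AR3_mut than in AR3_het, whereas in nude the fibroblast side was high and the mural side much less so. Summed over its 20 genes, the fibroblast level was 1506, 1433 and 1511 CPM in AR3_het 1 to 3, 8934, 13497 and 12976 CPM in AR3_mut 1 to 3 and 15142, 21743, 8852 and 23112 CPM in nude 1 to 4. The summed mural level over 13 genes was 402, 396 and 498 CPM in AR3_het, 2751, 3487 and 4118 CPM in AR3_mut and 616, 603, 1845 and 1404 CPM in nude. Every AR3_mut library thus had a higher mural sum than every nude library, while the fibroblast sums of these groups overlapped. As shares of all counts, the fibroblast genes held 0.174 ± 0.0141% (SD, n = 3) in AR3_het, 1.13 ± 0.242% (SD, n = 3) in AR3_mut and 1.56 ± 0.606% (SD, n = 4) in nude. The mural genes held 0.05104 ± 0.00976% (SD, n = 3), 0.331 ± 0.0643% (SD, n = 3) and 0.103 ± 0.0594% (SD, n = 4). Without nude 3, the nude shares were 1.797 ± 0.458% (SD, n = 3) for the fibroblast and 0.0782 ± 0.0419% (SD, n = 3) for the mural genes. In bulk RNA of a sorted population, fewer cells of a type and less RNA per cell cannot be told apart.

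The balance of the 2 sides was tilted to the fibroblast side in nude 1, 2 and 4, while the place of nude 3 depended on the measure. The ratio of the fibroblast to the mural sum was 3.74, 3.62 and 3.03 in AR3_het, 3.25, 3.87 and 3.15 in AR3_mut and 24.6, 36.04, 4.799 and 16.5 in nude 1 to 4. The ratio of nude 3 lay above all 6 ratios of the other groups on these sums and was the nude ratio nearest to them. On the mean of log2 ratios, nude was 4.71-fold above AR3_het and 4.77-fold above AR3_mut, and without nude 3 it was 7.08-fold and 7.17-fold above them. The mean log2 ratios of AR3_mut and AR3_het differed by -0.02, but the AR3_het sum rested mainly on Thy1, Gsn and Mgp. With stricter lists, which drop genes that other cell types widely make, the ratio was 0.984, 0.789 and 1.14 in AR3_het, 2.499, 3.24 and 3.32 in AR3_mut and 36.2, 55.2, 5.55 and 21.1 in nude, and AR3_mut was 3.12-fold above AR3_het. The strict sums rested mainly on Dcn against Myh11 and Rgs5. Dcn gave 647 of 1042 strict fibroblast counts in AR3_het 1 and 3006 of 5550 in AR3_mut 1. Myh11 and Rgs5 gave 622 and 357 of 1059 strict mural counts in AR3_het 1, and 621 and 602 of 2221 in AR3_mut 1. With Mgp, Dcn and Sparc left out of the fibroblast sum, a choice made after seeing the data, the order of AR3_mut and AR3_het was the opposite: 2.25, 1.895 and 1.36 in AR3_het, 0.854, 0.831 and 0.903 in AR3_mut and 6.199, 11.9, 1.35 and 4.94 in nude. Nude 3 was then below all 3 AR3_het libraries. The direction between AR3_mut and AR3_het thus turned with the genes summed. On the difference between the sides in mean log2(CPM + 1), which weights each gene alike, the values were 0.359, 0.228 and -0.0778 in AR3_het, -0.178, -0.234 and -0.259 in AR3_mut and 2.06, 2.71, 0.189 and 1.78 in nude, so that nude 3 lay within the range of AR3_het and nude 1, 2 and 4 above all others. These ratios are sums over chosen genes and were given no test.

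**Figure D1:**
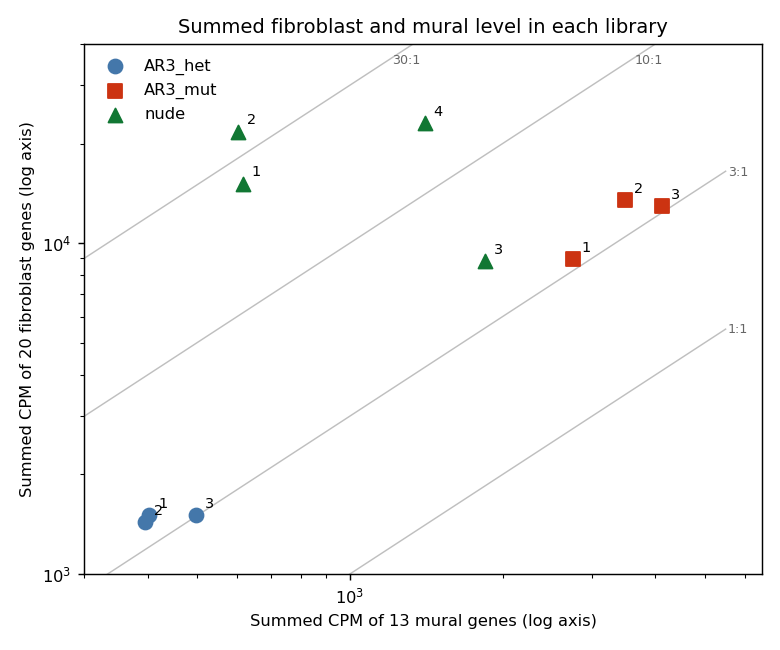
Summed mural CPM (horizontal axis) against summed fibroblast CPM (vertical axis) for each of the 10 libraries, both on log scales, with points coloured by group and grey lines of constant ratio. AR3_het lies at the lower left, AR3_mut at the upper right along nearly the same line, and nude 1, 2 and 4 lie above that line, with nude 3 nearest to it.

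Against AR3_het, 17 of the 19 tested fibroblast genes were higher in AR3_mut and 1 was lower, with a median log2 fold change of 3.98, or 3.48 with Tcf21 at its lower bound. Tcf21 is among the 17, and among the 16 higher in nude given below, but it passed the filter on low counts only through nude. Lum, Twist1, Prrx1, Dpt, Pi16, Acta2, Abcc9, Kcnj8, Higd1b and Ndufa4l2 were too low in AR3_het to pass it through that group. Libraries of AR3_mut or nude, where they were higher, brought them in, so their higher calls add little support. With no filter, 17 fibroblast genes were higher and 1 lower in AR3_mut, and 12 mural genes higher, among 5994 called (2845 higher, 3149 lower). In nude these were 16, 1 and 9, among 7230 called (3227 higher, 4003 lower). In the fit of AR3_mut and AR3_het alone, Tcf21 and Cnn1 were not tested, and 16 of 18 fibroblast and 12 of 12 mural genes were higher. Of all 12912 genes tested, 21.2% were higher and 20.6% lower, and their median was -0.04. On the mural side 12 of 13 were higher and 0 lower, with a median of 4.15 (edgeR quasi-likelihood test, adjusted p at most 0.05 over all genes tested). In nude, 16 of 19 fibroblast genes were higher and 1 lower, with a median of 3.88 (also with Tcf21 at its bound), against 23.7% higher and 24.2% lower among all genes and a median of -0.03. The mural count in nude was 9 of 13 higher and 0 lower, with a median of 2.4. Both comparisons use the same AR3_het libraries. Library scaling by total counts in place of TMM moved the median of all genes by -0.29 in AR3_mut and -0.38 in nude, less in size than the log2 fold change of each of these genes that passed, and left 16 fibroblast and 11 mural genes higher in AR3_mut, and 15 and 9 in nude. Among all called genes it moved the share called higher from 50.7% to 34.7% in AR3_mut and from 49.5% to 30.6% in nude.

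**Figure D2:**
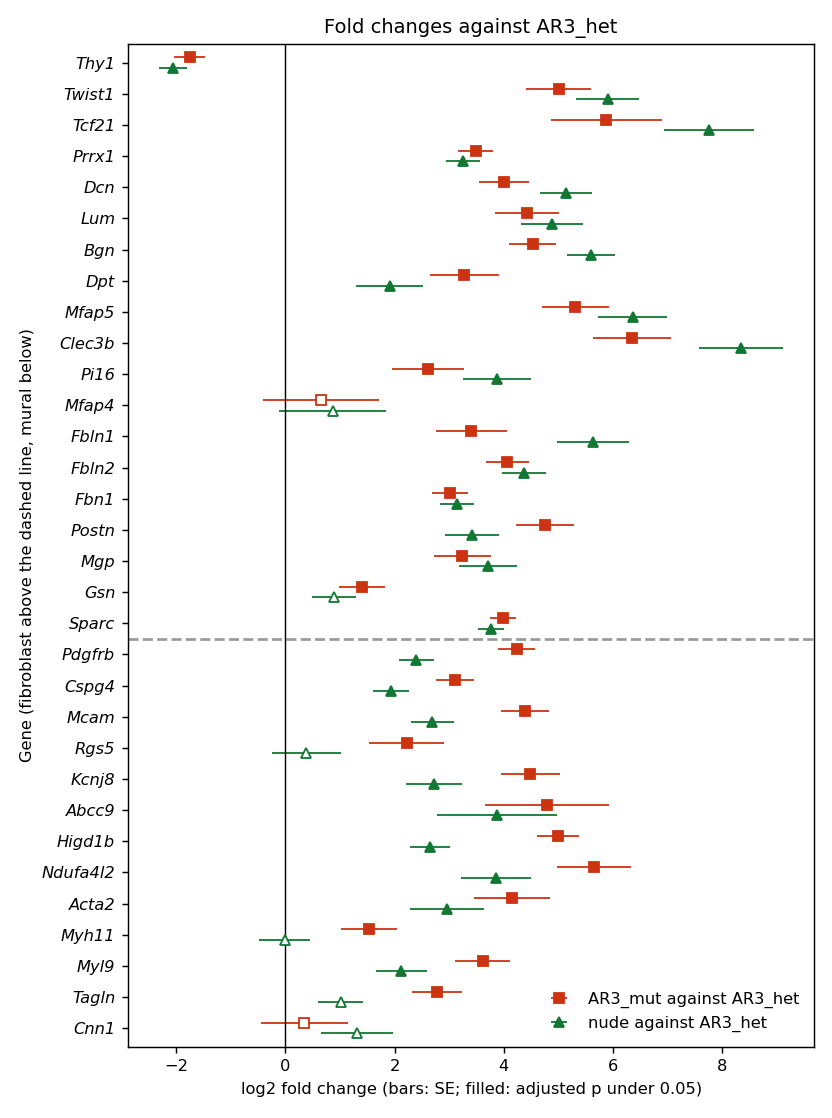
Log2 fold change of each tested gene in AR3_mut and in nude, both against AR3_het, with bars of 1 SE, genes in rows and fibroblast genes apart from mural genes. Most fibroblast genes lie as far to the right in nude as in AR3_mut or further, while most mural genes lie further right in AR3_mut, and Thy1 is the 1 called gene to the left of 0.

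Among the transcription factors of mesenchyme, Twist1 and Prrx1 were higher in both groups, and so was Tcf21, on few counts. Twist1 was at 2.69, 1.52 and 0.215 CPM in AR3_het, 31.7, 54.4 and 63.7 CPM in AR3_mut and 74.8, 133, 48.1 and 109 CPM in nude. Its log2 fold change was 5.01 ± 0.59 (SE), adjusted p = 5.11e-05, in AR3_mut and 5.91 ± 0.58 (SE), adjusted p = 9.93e-06, in nude. The AR3_het libraries lay below all others. Prrx1, a homeobox factor of limb and craniofacial mesenchyme, was at 1.86, 1.52 and 2.79 CPM in AR3_het, 20.3, 30.1 and 20.9 CPM in AR3_mut and 19.9, 25.6, 16.6 and 19.2 CPM in nude, and its levels in AR3_mut and nude overlapped. Tcf21, a regulator of fibroblast fate in visceral organs, had 0 counts in every AR3_het library. Its 13 counts pooled over AR3_mut were at least 10.5-fold higher than a floor of 3 counts over AR3_het. The 94 counts pooled over nude were at least 42.4-fold higher.

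The small leucine-rich proteoglycans, which bind collagen fibrils, were likewise higher in both groups. Decorin (Dcn) was at 134, 79.1 and 161 CPM in AR3_het, 1176, 2748 and 2077 CPM in AR3_mut and 4780.4, 5978, 2096 and 4731 CPM in nude. On the log2 scale Dcn was up by 4.00 ± 0.46 (SE), adjusted p = 3.80e-05, in AR3_mut and 5.14 ± 0.47 (SE), adjusted p = 6.67e-06, in nude, with no overlap with AR3_het. Dcn alone made up 20.5 to 31.6% of the fibroblast sum in nude. Lumican (Lum), which spaces collagen fibrils, was at 0.828, 0.303 and 2.15 CPM in AR3_het, 14.1, 17.4 and 49.8 CPM in AR3_mut and 36.1, 40.4, 31.5 and 33.6 CPM in nude. Biglycan (Bgn), which endothelial cells also make, was at 24.6, 21.5 and 19.95 CPM in AR3_het, 499, 596 and 436 CPM in AR3_mut and 1237, 1408, 392 and 1242 CPM in nude. All 3 passed the test in both comparisons against AR3_het.

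Clec3b and Mfap5, genes of adventitial fibroblasts, held the highest fold changes of the fibroblast side in both groups. Such fibroblasts line larger vessels and the capsule, and the ranking leaves aside Tcf21, whose fold is a bound. The adventitial genes Pi16 and Dpt had smaller log2 fold changes, of 2.61 and 3.27 in AR3_mut and 3.88 and 1.91 in nude. Clec3b, which encodes the plasminogen-binding protein tetranectin, was at 5.59, 5.76 and 5.36 CPM in AR3_het, 198, 637 and 538 CPM in AR3_mut and 1055, 2709.6, 585 and 2984 CPM in nude. Its log2 fold change was 6.35 ± 0.72 (SE), adjusted p = 3.56e-05, in AR3_mut and 8.35 ± 0.77 (SE), adjusted p = 6.63e-06, in nude. Mfap5, an elastic microfibril protein, was at 4.97, 3.64 and 4.51 CPM in AR3_het, 107, 235 and 189 CPM in AR3_mut and 250.4, 671, 123 and 421 CPM in nude, which left a wide gap between AR3_het and the rest. Pi16, a surface protein of adventitial fibroblasts, was at 3.104, 3.64 and 6.44 CPM in AR3_het, 21.9, 20.8 and 41.8 CPM in AR3_mut and 40.5, 87.4, 17.1 and 116 CPM in nude. Dermatopontin (Dpt), a collagen-binding matrix protein, was at 3.31, 1.52 and 4.08 CPM in AR3_het, 50.4, 21.4 and 14.9 CPM in AR3_mut and 3.97, 16.9, 7.19 and 18.01 CPM in nude. Its nude libraries overlapped AR3_het, and the call for nude (adjusted p = 0.0221) was lost in 7 of the alternatives tried, with adjusted p up to 0.114.

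Of the microfibril and fibulin genes, Fbn1, Fbln1 and Fbln2 were higher in both groups and Mfap4 in neither. Fibulin-1 (Fbln1), a protein of basement membranes and elastic fibres, was at 3.31, 5.76 and 3.86 CPM in AR3_het, 17.99, 62.5 and 57.7 CPM in AR3_mut and 134, 329, 77.4 and 305 CPM in nude, and no 2 groups overlapped. On the log2 scale Fbln1 was up by 3.40 ± 0.65 (SE), adjusted p = 0.00141, in AR3_mut and 5.63 ± 0.66 (SE), adjusted p = 3.51e-05, in nude. Fibulin-2 (Fbln2) was at 25.4, 25.5 and 19.95 CPM in AR3_het and 276 to 521 CPM in AR3_mut and 256 to 722 CPM in nude. Fibrillin-1 (Fbn1), the core of microfibrils, was at 18.6, 19.4 and 18.02 CPM in AR3_het, 133 to 174 CPM in AR3_mut and 88.5 to 257 CPM in nude. Mfap4 was low and uneven, at 4.97, 3.33 and 2.36 CPM in AR3_het, 12.1, 1.74 and 0.995 CPM in AR3_mut and 1.08, 10.7, 0 and 13.9 CPM in nude. The annotated gene Mfap4 overlaps Mapk7 on the other strand by 89 bases, and no source used here says whether counting used strand. Reads in that stretch cannot be told apart.

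Of the 4 other matrix genes, Sparc, Mgp and Postn were higher in both groups and Gsn in AR3_mut. Sparc, a collagen-binding protein that endothelium also makes, was at 171, 166 and 281 CPM in AR3_het, 3361, 3452 and 2974 CPM in AR3_mut and 2593, 2943, 2694 and 2964 CPM in nude. The log2 fold change of Sparc was 3.98 ± 0.24 (SE), adjusted p = 6.56e-07, in AR3_mut and 3.76 ± 0.23 (SE), adjusted p = 4.89e-07, in nude, with the smallest SE of the 32 genes in each of these comparisons. Mgp, an inhibitor of tissue calcification, was at 296, 438 and 390.5 CPM in AR3_het, 2047, 4400.4 and 4208 CPM in AR3_mut and 3950.2, 5652, 1576 and 8482 CPM in nude, again with no overlap with AR3_het. Periostin (Postn), a matricellular protein, was at 5.59, 5.15 and 4.51 CPM in AR3_het, 109, 133 and 176 CPM in AR3_mut and 29.99, 23.1, 97.3 and 70.4 CPM in nude. Every AR3_mut library was above every nude library for Postn, with a log2 difference of 1.34 ± 0.41 (SE), adjusted p = 0.0564, which passed in 5 alternatives, with adjusted p down to 0.00801 without nude 3. Gelsolin (Gsn), an actin-severing protein of many cell types, was already at 346, 369 and 228 CPM in AR3_het. Its log2 fold change of 1.40 ± 0.42 (SE), adjusted p = 0.019, in AR3_mut was lost in 5 alternatives (adjusted p up to 0.0931), and in nude it was 0.89 ± 0.39 (SE), adjusted p = 0.0846.

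Of the surface genes of the fibroblast side, Thy1 departed from the matrix genes, and Pdgfra was too low to test. Pdgfra, the PDGF receptor usually used to define fibroblasts, had 2 to 12 counts per library, or 1.45, 1.21 and 0.429 CPM in AR3_het, 1.96, 3.47 and 2.99 CPM in AR3_mut and 1.08, 2.89, 3.32 and 4.91 CPM in nude. It failed the filter on low counts and was not tested, and most of its values lie near the floor of 3 counts. All 3 AR3_mut values were above those of AR3_het, and the nude values overlapped AR3_het. The label fibroblast therefore rests on matrix genes and transcription factors in these libraries, and not on this receptor. Thy1, a surface glycoprotein of fibroblasts and also of thymocytes, was at 451, 282 and 355 CPM in AR3_het, 109, 96.1 and 119 CPM in AR3_mut and 83.5, 129.9, 55.9 and 79.4 CPM in nude. It fell by 1.75 ± 0.28 (SE) on the log2 scale in AR3_mut, adjusted p = 4.63e-04, and by 2.05 ± 0.26 (SE) in nude, adjusted p = 5.65e-05. Thymocyte genes moved with it: all 13 tested of a list of 14 were lower in AR3_mut and in nude, and their summed level was 1023 to 1787 CPM in AR3_het, 9.84 to 12.9 CPM in AR3_mut and 4.98 to 9.83 CPM in nude. In AR3_mut and in nude, 8 of the 14 had 0 counts in every library, Cd3d, Cd8b1, Rag1, Rag2 and Themis in both groups. The part of thymocyte RNA in the Thy1 result was not tested.

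**Figure D3:**
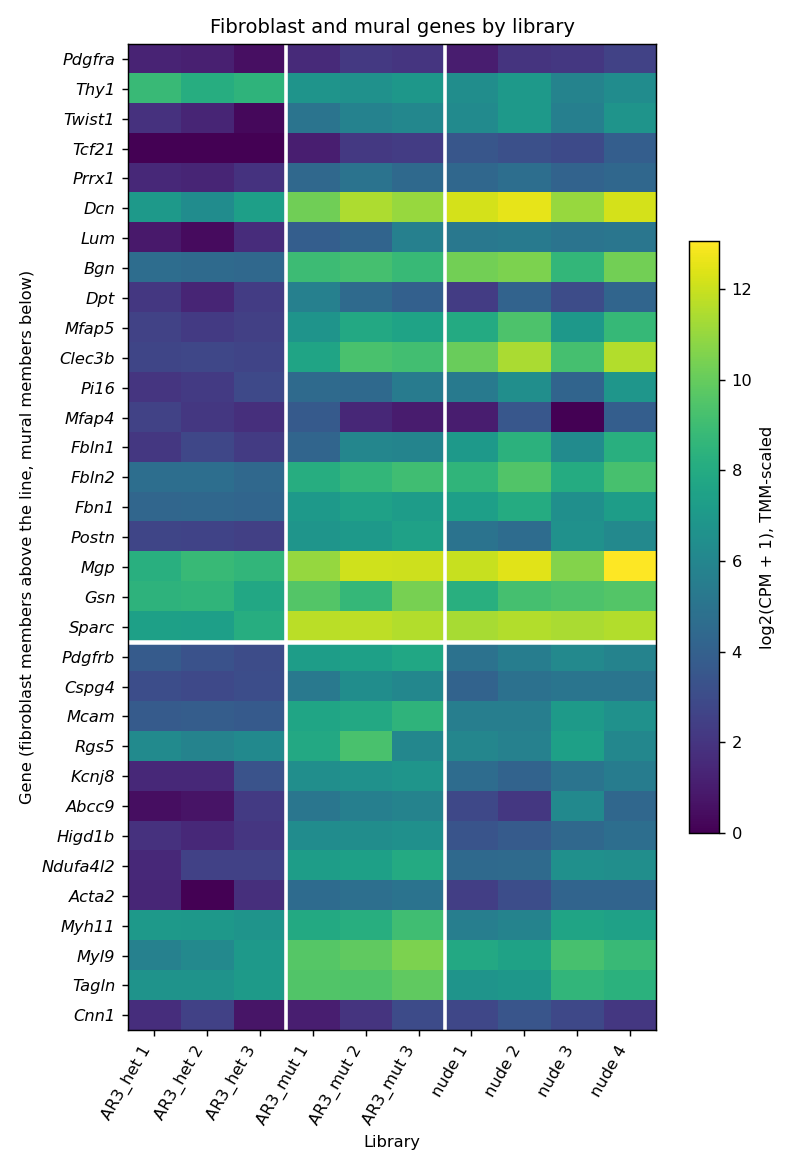
CPM of every gene of the set in each of the 10 libraries as log2(CPM + 1), coloured from dark (low) to bright (high), with genes in rows ordered by side and role and libraries in columns by group. Rows of Clec3b, Mfap5 and Dcn are brightest in nude 1, 2 and 4, mural rows such as Higd1b and Pdgfrb are brightest in AR3_mut, and the row of Pdgfra is dark throughout.

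On the mural side, the surface genes were higher in both groups and highest in AR3_mut. Pdgfrb, the receptor through which pericytes are recruited, was at 12.2, 8.79 and 7.29 CPM in AR3_het, 152, 168 and 219 CPM in AR3_mut and 28.9, 45.4, 70.8 and 56.9 CPM in nude. Its log2 fold change was 4.24 ± 0.34 (SE), adjusted p = 3.25e-06, in AR3_mut and 2.4 ± 0.31 (SE), adjusted p = 7.34e-05, in nude, and no 2 groups overlapped. Cspg4 (NG2), a surface proteoglycan of pericytes, was at 7.45, 6.37 and 7.51 CPM in AR3_het, 37.5, 83.9 and 65.7 CPM in AR3_mut and 16.6, 28.5, 32.6 and 32.8 CPM in nude. Mcam (CD146), an adhesion molecule shared with endothelium, was at 12.4, 13.3 and 12.01 CPM in AR3_het, 206, 234 and 359 CPM in AR3_mut and 47.3, 46.2, 137 and 97.8 CPM in nude. For Cspg4 and Mcam too, the 3 groups were separate from each other.

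In AR3_het, 4 of the 5 pericyte genes, all but Rgs5, stayed below 10 CPM in every library. Ndufa4l2, a mitochondrial protein induced by low oxygen and used as a pericyte marker, was at 1.86, 4.85 and 4.72 CPM in AR3_het, 150.2, 170.2 and 255 CPM in AR3_mut and 21.3, 21.4, 91.8 and 86.4 CPM in nude. Its log2 fold change of 5.66 ± 0.68 (SE), adjusted p = 5.55e-05, in AR3_mut was the highest of the mural side. The annotated Ndufa4l2 overlaps Shmt2 by 32 bases on the other strand. Higd1b, another pericyte marker, was at 2.69, 1.82 and 3.22 CPM in AR3_het, 79.8, 82.2 and 93.6 CPM in AR3_mut and 9.39, 12.4, 20.5 and 24.97 CPM in nude, and again no groups overlapped. Rgs5, which ends G-protein signalling and is among the most used pericyte markers, was uneven, at 73.9, 55.5 and 71.4 CPM in AR3_het, 235, 632 and 65.7 CPM in AR3_mut and 63.6, 51.96, 171 and 65.1 CPM in nude. AR3_mut 3 lay within the range of AR3_het, and the call for AR3_mut (log2 fold change 2.22 ± 0.69 (SE), adjusted p = 0.0241) was lost in 6 alternatives, with adjusted p up to 0.131. Rgs5 in nude was not called, at 0.38 ± 0.63 (SE), adjusted p = 0.649.

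Kcnj8 and Abcc9 encode the pore (Kir6.1) and the regulatory subunit (SUR2) of the ATP-sensitive potassium channel of pericytes and vascular smooth muscle. They are neighbours on chromosome 6, at 142564837 to 142571614 and 142587862 to 142702315 in GRCm38, both on the minus strand and 16.2 kb apart. Kcnj8 was at 1.86, 1.82 and 9.01 CPM in AR3_het, 87.2, 96.7 and 112 CPM in AR3_mut and 23.8, 16.9, 31.5 and 44.2 CPM in nude. For Kcnj8 the log2 fold change was 4.49 ± 0.54 (SE), adjusted p = 5.61e-05, in AR3_mut and 2.73 ± 0.51 (SE), adjusted p = 9.76e-04, in nude. Abcc9 was at 0.414, 0.606 and 3.65 CPM in AR3_het, 34.4, 48.6 and 55.7 CPM in AR3_mut and 6.14, 3.299, 71.4 and 19.2 CPM in nude, with nude 3 above every AR3_mut library. For Abcc9 it was 4.79 ± 1.13 (SE), adjusted p = 0.00622, in AR3_mut and 3.87 ± 1.10 (SE), adjusted p = 0.0137, in nude. Without nude 3 the nude value was 2.53 ± 0.75 (SE), adjusted p = 0.0157, and the nude call was lost in 2 alternatives, with adjusted p up to 0.0606.

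Of the 5 contractile genes, 4 were higher in AR3_mut and 2, Acta2 and Myl9, were higher in nude. Acta2, smooth muscle actin, was at 1.66, 0 and 2.36 CPM in AR3_het, 22.7, 26.6 and 29.9 CPM in AR3_mut and 4.34, 7.42, 17.1 and 17.6 CPM in nude. Myl9, the regulatory myosin light chain, was at 52.3, 70.6 and 133 CPM in AR3_het, 777, 945 and 1409 CPM in AR3_mut and 237, 185, 613 and 457 CPM in nude, with log2 fold changes of 3.61 ± 0.51 (SE), adjusted p = 1.68e-04, in AR3_mut and 2.13 ± 0.46 (SE), adjusted p = 0.00254, in nude. Tagln (SM22), an actin-binding protein that overlaps Pcsk7 by 108 bases on the other strand, was at 105, 104 and 136 CPM in AR3_het, 724, 711 and 926 CPM in AR3_mut and 105, 120.0, 385 and 321 CPM in nude. Only AR3_mut passed for Tagln against AR3_het, and nude 1 and nude 2 lay within the range of AR3_het. Myh11, the myosin heavy chain of smooth muscle, was at 129, 124 and 107 CPM in AR3_het, 243, 285 and 521 CPM in AR3_mut and 46.2, 55.3, 197 and 178 CPM in nude. The log2 fold change of Myh11 was 1.54 ± 0.51 (SE), adjusted p = 0.0314, in AR3_mut, lost in 6 alternatives (adjusted p up to 0.121), and -0.01 ± 0.47 (SE), adjusted p = 0.983, in nude, whose libraries lay on both sides of AR3_het. Cnn1 (calponin) stayed between 0.644 and 9.897 CPM in all libraries and was not called in any comparison.

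Smooth muscle genes are classically driven by serum response factor through the CArG box, and TEAD factors bind the core CATTCC. The CArG box was searched as 2 C, then 6 bases that are each A or T, then 2 G, with no mismatch allowed. The 250 bases before the transcription start are shown for 4 mural genes that were higher in AR3_mut: 2 contractile genes and the 2 channel genes. The 4 were chosen after their values were seen. Cspg4, Mcam and Rgs5 were also higher in AR3_mut, but their windows, which hold no full match to either motif, are not shown. Bases are from RefSeq, 5′ to 3′ on the gene's strand, and capitals mark a full CArG match or a TEAD core, which reads GGAATG where it lies on the opposite strand.
Myl9 promoter (GRCm38.p6 chr2:156775214-156775463, plus strand, CArG box): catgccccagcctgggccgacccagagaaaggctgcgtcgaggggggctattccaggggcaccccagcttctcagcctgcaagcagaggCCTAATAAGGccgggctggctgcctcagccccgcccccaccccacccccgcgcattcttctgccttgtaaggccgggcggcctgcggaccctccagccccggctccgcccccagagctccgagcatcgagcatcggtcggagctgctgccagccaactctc
Acta2 promoter (GRCm38.p6 chr19:34255374-34255623, minus strand, TEAD core): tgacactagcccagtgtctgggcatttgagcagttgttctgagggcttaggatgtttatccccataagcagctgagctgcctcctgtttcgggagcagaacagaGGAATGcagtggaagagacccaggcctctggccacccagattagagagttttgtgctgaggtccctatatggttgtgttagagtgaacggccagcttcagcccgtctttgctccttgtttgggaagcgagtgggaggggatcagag
Abcc9 promoter (GRCm38.p6 chr6:142702275-142702524, minus strand, TEAD core): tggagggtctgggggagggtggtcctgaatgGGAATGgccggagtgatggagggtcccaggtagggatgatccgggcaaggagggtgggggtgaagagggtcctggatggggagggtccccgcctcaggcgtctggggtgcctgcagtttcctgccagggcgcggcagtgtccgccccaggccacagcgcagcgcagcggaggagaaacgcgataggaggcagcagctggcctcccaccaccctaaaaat
Kcnj8 promoter (GRCm38.p6 chr6:142571615-142571864, minus strand, no full match to either motif): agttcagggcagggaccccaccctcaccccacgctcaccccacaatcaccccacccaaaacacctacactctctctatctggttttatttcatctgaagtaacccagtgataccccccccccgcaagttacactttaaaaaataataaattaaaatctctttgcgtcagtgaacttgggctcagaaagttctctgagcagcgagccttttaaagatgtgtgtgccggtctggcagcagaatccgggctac
In Myl9 the CArG box begins 161 bases before the start. The TEAD core begins 146 bases before it in Acta2 and 219 bases before it in Abcc9. RefSeq windows were found for 21 of the 33 genes. A CArG box was present in 1 of 8 mural and 0 of 17 fibroblast windows, and in 1.47% of all 32851 windows of the same length. With 1 mismatch allowed, 4 of 8 mural and 4 of 17 fibroblast windows held such a stretch, as did 18.6% of all windows. Acta2, whose promoter has CArG elements that depart from the strict pattern, held 2 such stretches, which begin 84 and 34 bases before the start, and Kcnj8 held 1, at 46 bases. The TEAD core was present in 2 of 8 mural and 1 of 17 fibroblast windows (that of Prrx1), and in 12.6% of all windows. A match describes these letters only and is no sign of binding.

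The direct comparison of AR3_mut with nude separated the 2 sides. Of 13 mural genes, 8 were higher in AR3_mut and 0 lower, with a median log2 difference of 1.70. Among all genes tested, 7.58% were higher and 3.71% lower, with a median of 0. Of 19 fibroblast genes, 0 were higher and 3 lower, with a median of -0.46. Tcf21, 1 of the 3, passed the filter on low counts only through nude, where it is high. At an unadjusted p under 0.05 in edgeR, 2 fibroblast genes were higher and 7 lower, and 10 mural genes were higher and 0 lower, against 15.4% higher and 11.9% lower among all genes tested. DESeq2 called 1 fibroblast gene higher and 5 lower, and 10 mural genes higher, out of 1987 genes in all (1235 higher and 752 lower), against 1458 in edgeR (979 higher and 479 lower). Of the called mural genes, Higd1b differed most, by 2.35 ± 0.30 (SE), adjusted p = 0.00108, followed by Pdgfrb at 1.83 ± 0.28 (SE), adjusted p = 0.00239. Ndufa4l2 (1.80), Kcnj8 (1.76), Tagln (1.76), Mcam (1.70), Myl9 (1.48) and Cspg4 (1.17) completed the called mural genes, with adjusted p from 0.0112 to 0.0452. In all 8 the AR3_mut libraries lay above every nude library. These genes were called from the same values, so this adds no support, and the share of all tested genes so separated was not computed. Rgs5 at 1.84 ± 0.62 (SE), adjusted p = 0.0845, Myh11 at 1.55 ± 0.47 (SE), adjusted p = 0.0566, and Acta2 at 1.19 ± 0.55 (SE), adjusted p = 0.189, did not pass. Pdgfrb, Higd1b and Mcam passed in all 14 alternatives tried, and the other 5 called mural genes lost the call in at least 1.

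The 3 fibroblast genes lower in AR3_mut than in nude were Fbln1, Clec3b and Tcf21. The call of Tcf21 gives no support here, because Tcf21 entered the test only through nude, the group where it is high. Against nude, Fbln1 differed by -2.23 ± 0.54 (SE), adjusted p = 0.0231, Clec3b by -2.0 ± 0.55 (SE), adjusted p = 0.0386, and Tcf21 by -1.88 ± 0.52 (SE), adjusted p = 0.0473, on the log2 scale. Clec3b overlapped between the groups through nude 3 and AR3_mut 2, and none of the 3 calls held in every alternative. Sparc differed by 0.22 ± 0.20 (SE), adjusted p = 0.534, Prrx1 by 0.23 ± 0.26 (SE), adjusted p = 0.642, and Fbn1 by -0.13 ± 0.28 (SE), adjusted p = 0.822, and none of these passed. Dcn, at -1.14 ± 0.39 (SE), adjusted p = 0.0833, and Bgn, at -1.07 ± 0.35 (SE), adjusted p = 0.0749, were lower in every AR3_mut library than in nude 1, 2 and 4, but nude 3 lay within the AR3_mut range for Dcn and below it for Bgn, and neither passed.

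**Figure D4:**
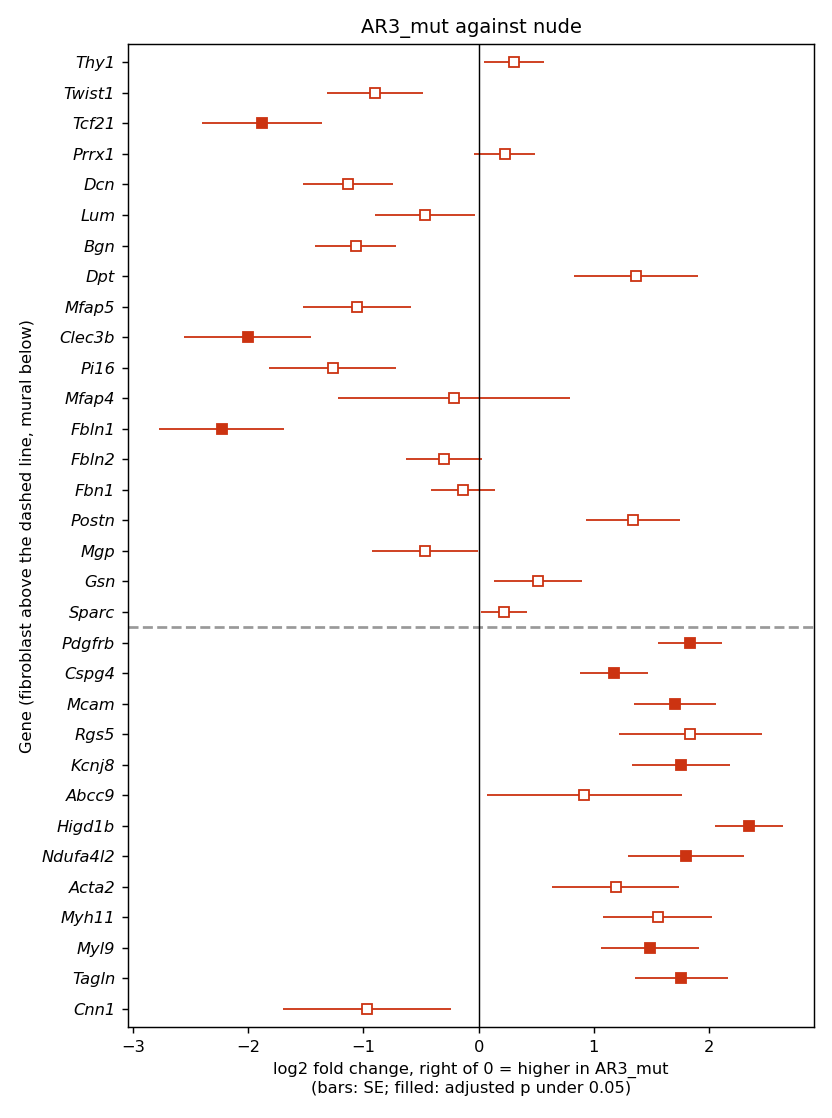
Log2 difference of AR3_mut minus nude for each tested gene with bars of 1 SE, fibroblast and mural genes apart, filled where the adjusted p passed. Most mural genes lie to the right of 0 and most fibroblast genes lie at or to the left of it, with Higd1b the furthest right of the called genes and Fbln1 the furthest left.

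The size of this split depended on nude 3. Without nude 3, 7 fibroblast genes were lower and 1 higher in AR3_mut, and 11 mural genes were higher. On the fibroblast side Dcn was then at -1.37 ± 0.33 (SE), adjusted p = 0.0164, and Bgn at -1.34 ± 0.18 (SE), adjusted p = 0.00115. Mfap5, at -1.34 ± 0.35 (SE), adjusted p = 0.0253, and Pi16, at -1.58 ± 0.41 (SE), adjusted p = 0.0232, also passed, as did Postn in the other direction, at 1.75 ± 0.35 (SE), adjusted p = 0.00801. On the mural side Rgs5 was at 2.38 ± 0.60 (SE), adjusted p = 0.0255, Myh11 at 1.91 ± 0.46 (SE), adjusted p = 0.0183, and Abcc9 at 2.26 ± 0.62 (SE), adjusted p = 0.03, while Acta2, at 1.42 ± 0.57 (SE), adjusted p = 0.117, still did not pass. The count over all genes also rose, from 1458 (979 higher and 479 lower) to 1993 (1232 higher and 761 lower, of 12828 tested). Without AR3_mut 1, without AR3_mut 3 or without nude 2, 0 fibroblast genes passed (5, 10 and 8 at an unadjusted p under 0.05), and without AR3_mut 2 or without nude 4 only 1 did. The mural count was 4 without AR3_mut 2, without AR3_mut 3, without nude 1 or without nude 2. Calls over all genes fell in these fits too, to 904, 1152 and 1133 without AR3_mut 1, 2 and 3. They fell to 883, 998 and 1182 without nude 1, 2 and 4. In nude 3 the fibroblast sum was the lowest of the nude group and the mural sum the highest.

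Within nude, the 4 libraries differed more among themselves than those of AR3_het did. The fibroblast sum varied from 8852 to 23112 CPM and the mural sum from 603 to 1845 CPM. For 4 of the 5 contractile genes, all but Cnn1, nude 1 and nude 2 were low and nude 3 and nude 4 high, as with Myh11 at 46.2, 55.3, 197 and 178 CPM and Ndufa4l2 at 21.3, 21.4, 91.8 and 86.4 CPM among the pericyte genes. For adventitial genes nude 2 and nude 4 were high and nude 1 and nude 3 low, as with Pi16 at 40.5, 87.4, 17.1 and 116 CPM and, among the fibulins, Fbln1 at 134, 329, 77.4 and 305 CPM. Sparc, by contrast, ranged from 2593 to 2964 CPM.

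The PDGF ligands differed on the B chain. Pdgfb, the ligand of Pdgfrb that endothelium secretes, was at 17.4, 13.9 and 19.1 CPM in AR3_het, 171, 193 and 210.0 CPM in AR3_mut and 31.1, 24.7, 69.1 and 76.1 CPM in nude. Its log2 difference was 3.50 ± 0.40 (SE), adjusted p = 3.62e-05, for AR3_mut against AR3_het, 1.56 ± 0.36 (SE), adjusted p = 0.00398, for nude against AR3_het and 1.93 ± 0.34 (SE), adjusted p = 0.00511, for AR3_mut against nude, and no groups overlapped. Pdgfa, a ligand of Pdgfra, did not pass in any of the 3 comparisons and was at 224 ± 41.6 CPM (SD, n = 3) in AR3_het, 254 ± 29.7 CPM (SD, n = 3) in AR3_mut and 181 ± 35.1 CPM (SD, n = 4) in nude. Of the 4 ligands tested, Pdgfd was higher in both groups. Pdgfc was higher in nude at 1.79 ± 0.63 (SE), adjusted p = 0.034, against 1.41 ± 0.67 (SE), adjusted p = 0.116, in AR3_mut, and its AR3_mut and nude libraries overlapped.

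Other genes of the 2 cell types, from lists apart from the 33, were mostly higher against AR3_het. Between AR3_mut and nude only the mural list kept to a single direction. Among all genes tested, 21.2% were higher and 20.6% lower in AR3_mut against AR3_het, and 23.7% and 24.2% in nude. Of 25 other fibroblast genes tested, 20 were higher in AR3_mut and 19 in nude, and 2, Mmp2 and Cxcl12, were lower in each. Col1a1, the main chain of type I collagen, was at 39.5, 22.7 and 20.4 CPM in AR3_het, 540.4, 1176 and 1341 CPM in AR3_mut and 1290.5, 3051, 844 and 2189 CPM in nude. Between AR3_mut and nude, 2 of the 25 were higher in AR3_mut and 3 lower, a mixed result. The shares among all genes tested were 7.58% higher and 3.71% lower. Of 22 other mural genes tested, 17 were higher and 0 lower in AR3_mut, and 13 higher and 1 lower in nude. Between AR3_mut and nude, 8 of the 22 were higher in AR3_mut and 0 lower: Notch3, Heyl, Des, Vtn, Gucy1b3, Ebf1, Aoc3 and Nr2f2. Notch3, the Notch receptor of mural cells, was at 40.1, 60.3 and 36.9 CPM in AR3_het, 463, 568 and 592 CPM in AR3_mut and 78.03, 95.7, 249 and 214 CPM in nude, separate in all 3 groups.

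Markers of other cells of the stroma moved with both sides. Over all genes tested, the shares against AR3_het were 21.2% higher and 20.6% lower in AR3_mut, and 23.7% and 24.2% in nude. For AR3_mut against nude they were 7.58% higher and 3.71% lower. Endothelial genes, 16 of 16 higher in both groups against AR3_het and 14 of 16 higher in AR3_mut than in nude, moved with the mural genes. Their summed level was 219.9, 227 and 256 CPM in AR3_het, 7868, 7516 and 9624 CPM in AR3_mut and 1922, 1569, 2950.4 and 3073 CPM in nude, and the endothelial selectin Sele was at 0 in AR3_het. Mesothelial genes, from the cell layer that lines body cavities, moved with the fibroblast genes: 5 of 5 were higher in both groups and 0 of 5 differed between AR3_mut and nude. Their summed level was 404, 441 and 202 CPM in AR3_het, 2376, 3376 and 2916 CPM in AR3_mut and 5462, 5839, 1871 and 4645 CPM in nude, lowest in nude 3 within the nude group. Epithelial genes, the labelled cell type, were 7328 to 11378 CPM in sum in AR3_het, 1948 to 5445 CPM in AR3_mut and 4949 to 7510.3 CPM in nude, with 4 of 10 lower in each group against AR3_het and 1 of 10 higher in nude. Basal or myoepithelial cells can also make contractile proteins. The 4 genes tested for these cells, Krt5, Krt14, Krt17 and Trp63, encode none of those proteins, and Krt5 is also on the epithelial list. Of the 4, 3 were lower in AR3_mut and 4 in nude. The sum over the 6 genes of this list was 2901 to 4869.8 CPM in AR3_het, 149 to 919 CPM in AR3_mut and 283 to 411 CPM in nude. The part of each of these cell types in the fibroblast and mural results was not tested.

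**Figure D5:**
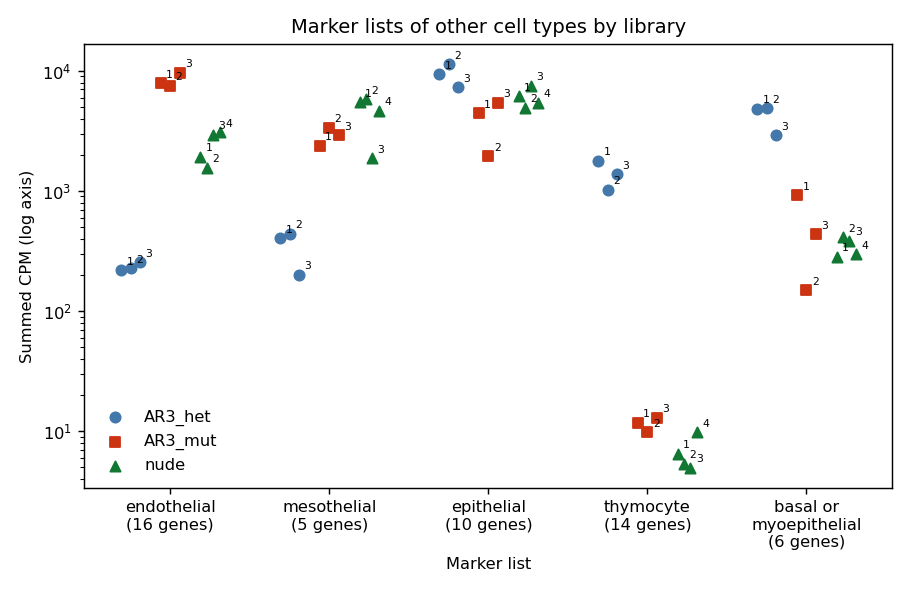
Summed CPM of the marker lists of other cell types in each library, on a log axis, with points coloured by group. The endothelial sum is highest in AR3_mut and lowest in AR3_het, the mesothelial sum is high in both AR3_mut and nude, and the thymocyte sum is high in AR3_het alone.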

How the data were processed

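RNA of sorted thymic epithelial cells was measured in 10 libraries (AR3_mut, n = 3; AR3_het, n = 3; nude, n = 4), grouped by the labels. The values used are raw counts per gene, which the authors deposited as whole numbers in 1 table of 15790 genes, per the file headers. STAR 2.4.2a and HTSeq are listed in the submitters' processing notes beside bcl2fastq, cutadapt and DESeq2, with mm10 as the build and no roles stated. The sources used here do not say if molecular identifiers were collapsed, and floors cover counting error only. Not used were 20 other columns of per-library values (normalized or transformed) and the authors' own comparisons.

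Genes passing filterByExpr (minimum count 10, minimum total 15; 12912 genes) were tested in R 4.3.3 with edgeR 4.0.16: TMM scaling and a robust quasi-likelihood fit over the 10 libraries, with no term but the group. All tests were two-sided, with Benjamini-Hochberg adjustment over all genes tested and a threshold of 0.05. The SE is the absolute log2 fold change divided by the square root of F. Levels are CPM scaled by TMM. The script was tested on simulated data. Depth was 1056066 to 2667973 counts in AR3_mut, 2948283 to 4175851 in AR3_het and 1901282 to 3302161 in nude. No 2 libraries of a group agreed within sampling noise (lowest chi-square per degree of freedom 4.29). Alternatives were library totals or DESeq2 size factors, DESeq2 1.42.0, limma-voom (limma 3.58.1), no filter, the 2 compared groups alone, a replicate block and leaving out each library. For the ratio of the sides, stricter lists, a mean over genes of log2(CPM + 1) and, chosen after seeing the data, a fibroblast sum without Mgp, Dcn and Sparc were tried. Gene positions and overlaps are from GENCODE M21 (GRCm38), and promoter sequences from RefSeq (GRCm38.p6, the assembly family of mm10).

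The 33 genes and the lists of other cell types were chosen with earlier results of these data known. Named genes are all 33, Foxn1, the PDGF ligands, Notch3 and the most abundant tested genes of each other list, plus Ddx3y and Xist, added after their values were seen. Genes named as exceptions to a count were likewise chosen after their values were seen.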

Additional observations from a re-analysis of the deposited data

Results flagged for a closer look

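Of 34 quantities examined over the 4 nude libraries, 2 had 1 library far from the other 3 by Dixon's test. Chance alone gives such a library in about 1 in 20 groups, and 2 of 34 is close to that rate. The library was nude 3 both times. Bgn was at 392 CPM in nude 3 and between 1237 and 1408 CPM in nude 1, 2 and 4. Rgs5 was at 171 CPM in nude 3 and between 51.96 and 65.1 CPM in the others.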

How the results depend on the processing

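Of the single-gene values recomputed under each alternative, 394 of 414 kept their direction and call for AR3_mut against AR3_het, 429 of 448 for nude against AR3_het and 374 of 448 for AR3_mut against nude. All 29 higher and 1 lower calls of the first comparison, all 25 higher and 1 lower calls of the second and all 11 calls of the third kept their direction in every alternative run. Leaving out 1 library gave 17 to 18 fibroblast and 10 to 12 mural calls for AR3_mut against AR3_het, 16 to 18 and 8 to 10 for nude against AR3_het, and 0 to 8 and 4 to 11 for AR3_mut against nude, with 4444 to 5194, 5169 to 6202 and 883 to 1993 calls over all genes. For AR3_mut against nude, DESeq2 called 6 fibroblast genes, 5 of them lower, and 10 mural genes. The fit of these 2 groups alone, which has fewer libraries, called 0 fibroblast and 5 mural genes and 952 genes in all, and 8 fibroblast genes had an unadjusted p under 0.05 in it.

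The difference in log2 ratio between the sides for AR3_mut against AR3_het (-0.02) turned to 1.64 with the stricter lists, which leave out Thy1, Gsn and Mgp among others, and moved to -0.39 with a mean over genes of log2(CPM + 1). Leaving Mgp, Dcn and Sparc out of the fibroblast sum, an alternative chosen after seeing the data, gave -1.06. Leaving out 1 library gave -0.11 to 0.0410, with both signs present. For nude against AR3_het (2.24) the stricter lists gave 4.52, the mean of logs 1.51 (2.85-fold, against 4.71-fold), the sum without the 3 genes 1.39, and leaving out 1 library 1.85 to 2.82. For AR3_mut against nude (-2.25) these were -2.88, -1.91, -2.45 and -2.84 to -1.87.

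Uncalled log2 fold changes near 0 changed sign. Leaving out 1 library gave -1.27 to 1.02 for Mfap4 and -0.35 to 1.04 for Cnn1 in AR3_mut against AR3_het, -0.37 to 0.26 for Myh11 and -0.15 to 0.57 for Rgs5 in nude against AR3_het, and -2.15 to 0.47 for Mfap4, -0.00407 to 0.35 for Prrx1, -0.00501 to 0.82 for Gsn and -0.34 to 0.16 for Fbn1 in AR3_mut against nude. Mfap4 in nude against AR3_het gave -0.33 with limma-voom and -0.18 with the replicate block, and in AR3_mut against nude 0.38 and 0.50. Where no cause is given, the cause was not tested.

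The labels do not say whether the replicate numbers pair the libraries. Deviations of same-numbered libraries correlated at r from -0.32 to 0.13. Libraries of different numbers were not compared, so these values do not settle the pairing. A replicate block over libraries 1 to 3 of each group called 17 fibroblast and 11 mural genes for AR3_mut against AR3_het, 16 and 9 for nude against AR3_het, and 2 (1 higher, 1 lower) and 9 for AR3_mut against nude, with 4771, 5199 and 925 genes in all. Depth limits Pdgfra, Tcf21, Mfap4 and Cnn1, among others, which lie within a few counts of the floor in some or all libraries. In AR3_het 1 to 3, Lum had 4, 1 and 10 counts, Twist1 13, 5 and 1, Acta2 8, 0 and 11 and Abcc9 2, 2 and 17. The size of such fold changes against AR3_het thus rests on few counts.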

Other observations

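Smaller sets of genes from other cell types of the stroma also differed between the groups. Over all genes tested, the shares against AR3_het were 21.2% higher and 20.6% lower in AR3_mut, and 23.7% and 24.2% in nude. For AR3_mut against nude they were 7.58% higher and 3.71% lower. Lymphatic endothelial genes (3 tested) were higher for 2 genes, Lyve1 and Flt4, in both groups against AR3_het and for all 3 in AR3_mut against nude. Lyve1, a hyaluronan receptor of lymphatic vessels, was at 1.03, 0.606 and 0.215 CPM in AR3_het, 156, 342 and 84.6 CPM in AR3_mut and 2.53, 10.3, 7.74 and 5.73 CPM in nude, with a log2 difference of 4.91 ± 0.51 (SE), adjusted p = 4.37e-04, between AR3_mut and nude (edgeR quasi-likelihood test). Sox10, the transcription factor of Schwann and other neural crest cells, was the 1 gene of 3 tested on the Schwann list that passed against AR3_het. It was at 2.07, 5.46 and 1.93 CPM in AR3_het, 39.5, 30.1 and 118 CPM in AR3_mut and 125, 120.0, 109 and 143 CPM in nude.

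Striated muscle genes, which some medullary epithelial cells express, went down: of 4 tested, 3 were lower in AR3_mut and 4 in nude, and their summed level was 51.5 to 88.1 CPM in AR3_het, 6.26 to 14.9 CPM in AR3_mut and 3.28 to 5.06 CPM in nude. Of 5 adipocyte genes, 2, Plin1 and Cfd, were higher in both groups, with summed levels of 9.22 to 17.3 CPM in AR3_het, 20.3 to 96.5 CPM in AR3_mut and 11.5 to 80.8 CPM in nude.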
